A study of Rattus norvegicus with 4 samples.

Results

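Hepatocytes were followed across 4 single-cell RNA libraries of Lewis rat liver, each preserved in another way. Barcodes were kept with at least 200 genes, at least 500 UMIs (unique molecular identifiers, 1 per captured RNA molecule) and at most 20% of UMIs from mitochondrially encoded genes. A kept barcode counted as a hepatocyte when it held at least 6 of 10 hepatocyte transcripts (Alb, Ttr, Apoc3, Apoa1, Serpina1, Serpinc1, Gc, Tdo2, Fgb and Cyp2c7), when these made up at least 5% of its UMIs, and when it held no UMI of Ptprc, Stab2, Clec4f or Colec11, which mark leukocytes, sinusoidal endothelium, Kupffer cells and stellate cells. This rule found 6431 of 35901 kept barcodes. The hepatocytes were thus selected on the measured levels of these genes, which are given as a description only.

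Hepatocytes are the main parenchymal cells of the liver. They secrete most plasma proteins, make glucose from amino acids and lactate between meals, build and export lipid, form bile acids, and clear drugs through cytochrome P450 enzymes. They also answer inflammatory cytokines by way of NF-kB, interferon and STAT3 signalling, with the release of chemokines and acute phase proteins. Enzymes of nitrogen and glucose metabolism are enriched near the portal vein, and glutamine synthesis and much of drug metabolism near the central vein.

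The naive liver was not preserved. The cold storage liver (CS) was held for 4 h at 4 °C. The NEVLP2 liver underwent normothermic ex vivo liver perfusion, in which an isolated liver is pumped with warm oxygen-carrying fluid, for 4 h at 37 °C. The NEVLPcty liver was perfused in the same way with the cytokines IL-10 and TGF-β added. The sources do not explain the digit in NEVLP2. The perfusate was William's E medium with Lewis red blood cells, insulin, hydrocortisone, papaverine, heparin, antibiotics and human albumin, so both perfused livers met insulin and a glucocorticoid that the naive and cold-stored livers did not get from it. Each condition had 1 library, with no animal, sex, age or cell isolation given. Animal, preparation and treatment therefore cannot be told apart, no test was possible, and every interval below is a 95% interval for counting error only.

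Hepatocytes made up 43.41% of kept barcodes in the naive library (1433 of 3301, exact binomial interval 41.71 to 45.12). The share was 13.03% under cold storage (1407 of 10798, 12.4 to 13.68), 23.38% in NEVLP2 (2381 of 10186, 22.56 to 24.21) and 10.42% in NEVLPcty (1210 of 11616, 9.867 to 10.99). The naive library thus held the highest share and the fewest kept barcodes. These shares depend on how each liver was dissociated as well as on its cells, and they moved with the threshold of the rule. Just inside it, with 5 to 6% of UMIs from the 10 genes, lay 37 naive, 147 CS, 398 NEVLP2 and 172 NEVLPcty hepatocytes. Just outside it, at 4 to 5%, lay 31, 139, 323 and 145 barcodes that met every other condition. The 4 excluded genes barred a further 62, 333, 416 and 77 barcodes.

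The hepatocyte barcodes were shallow. Their median depth was 1889 UMIs in the naive, 1557 in the CS, 1493 in the NEVLP2 and 1811 in the NEVLPcty library, against medians of 5640 to 9296 UMIs in the lymphocyte barcodes and 5606 to 6064 in the endothelial barcodes of the same libraries. Summed over hepatocytes, the libraries held 3896310, 2752630, 4978932 and 3382584 UMIs. The share of mitochondrially encoded transcripts differed more than the depth. Its median was highest in the naive hepatocytes at 3.79% and lowest in NEVLPcty at 0.079%, with 0.898% after cold storage and 1.199% in NEVLP2, and 24.13% of the NEVLPcty hepatocytes held no such UMI at all. Endothelial barcodes of the same libraries had medians of 4.725%, 3.311%, 2.691% and 2.023%, a narrower spread in the same order of naive first and NEVLPcty last. The part of the mitochondrial share in the gene differences below was not tested, beyond the values given for hepatocytes with at most 1% mitochondrial UMIs.

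**Figure D1:**
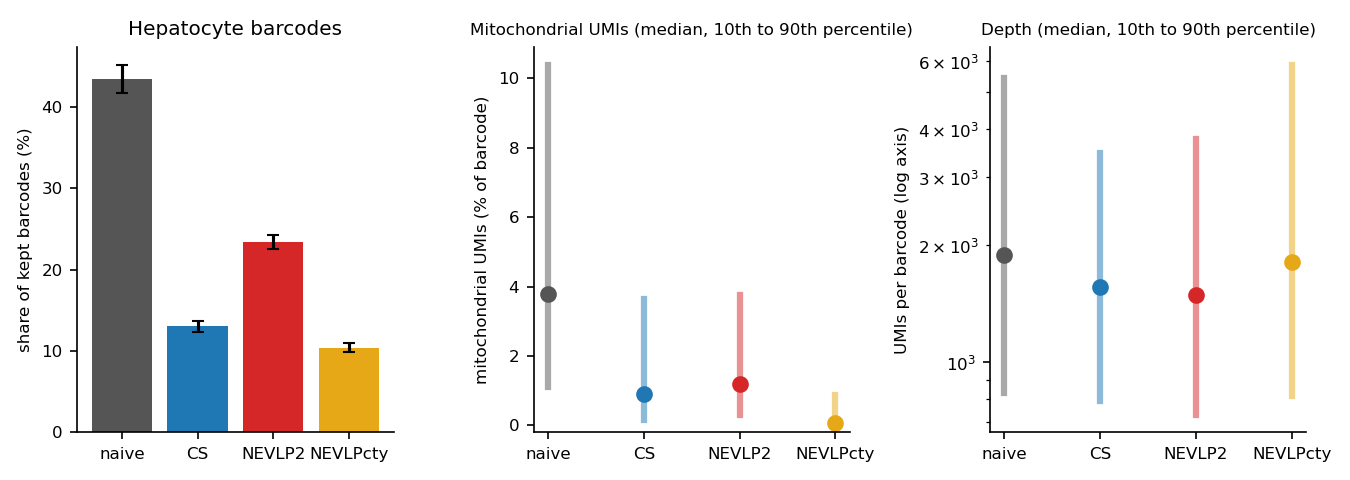
Hepatocytes in the 4 libraries: their share of kept barcodes in percent (bars from 0, with exact 95% binomial intervals), the mitochondrial share of their UMIs in percent and their UMIs per barcode (points are medians, lines the 10th to 90th percentile). The naive library has the highest share, 43.41%, and NEVLPcty the lowest median mitochondrial share, 0.079%, at similar depth.

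The label held against genes the rule did not use, although RNA freed from broken hepatocytes would carry these genes too. They therefore cannot tell a whole hepatocyte from such RNA. Over 21 other hepatocyte transcripts among the features, such as Hnf4a, Tf, Ambp and Ass1, the summed level was 53498.8, 49323.0, 47601.6 and 52193.8 CPM, where CPM is a gene's count scaled to a common library total. Runs of 4 values follow the order naive, CS, NEVLP2, NEVLPcty here and below. Endothelial barcodes of the same libraries held 977.3 to 2132 CPM of these transcripts, and lymphocyte barcodes 366.9 to 1002. The 9 bile duct markers among the features summed to between 39.52 and 53.21 CPM in the hepatocytes of the 4 libraries, and 5 to 7 of them were at 0. The 14 stellate markers summed to at most 15.37 CPM, with 4 to 8 of them at 0. Barcode sequences were hardly shared: each pair of libraries had 7 to 32 kept barcodes in common, and at most 2 that were hepatocytes in both.

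Transcripts of other liver cells were present in the hepatocyte barcodes. Endothelial markers were highest in CS, and Kupffer cell, T or NK cell and B cell markers in CS or NEVLP2. The summed level of 15 endothelial markers was 23.1, 1186, 265.3 and 406.2 CPM, which is 0.07095%, 4.197%, 1.946% and 2.026% of the level in endothelial barcodes of the same library. At least 1 UMI of such a marker was found in 5.443%, 80.24%, 34.44% and 62.07% of the hepatocytes. The 11 Kupffer cell markers reached 95.47, 720.8, 613.2 and 124.8 CPM, or 0.2323%, 1.392%, 2.062% and 0.4025% of the Kupffer cell level, and the 12 T or NK cell markers 55.18, 109, 152.8 and 38.14 CPM, or 0.3914%, 0.7374%, 0.8428% and 0.133%. The 6 B cell markers summed to 144, 279.4, 753.4 and 237.4 CPM, nearly all of it Cd74, the invariant chain of MHC class II that macrophages also make, at 141, 274, 750 and 237 CPM with a marker-implied level (defined next) of 384 in NEVLP2. Cd79b, a part of the B cell receptor, was at 2.57, 2.54, 2.61 and 0 CPM. The B cell markers did not enter the marker-implied level. None of the endothelial and Kupffer markers was at 0 in the 3 preserved libraries, and 3 endothelial markers were at 0 in the naive one. To read a hepatocyte level against this, the level of each gene in endothelial, Kupffer and lymphocyte barcodes was multiplied by these percentages and added up. The sum is called the marker-implied level below. A gene whose level in hepatocytes stands near it gives no hepatocyte result here. The levels came from 33, 2501, 795 and 3727 endothelial barcodes and 121, 1294, 812 and 415 Kupffer barcodes. Lymphocyte barcodes numbered 674, 679, 668 and 505. The naive endothelial and Kupffer references were thus the smallest of their kind.

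Cold storage against the naive liver came first. Counting genes with at least 20 UMIs over both libraries, 1127 of 7301 were at least 2-fold higher in CS hepatocytes (15.4%) and 318 at least 2-fold lower (4.36%). The median gene was 0.31 higher on the log2 scale, and centring on that median gave 789 higher and 538 lower genes. Lists are counted without the genes of the member rule throughout. Of 29 cytochrome P450 genes 2 were at least 2-fold higher and 9 lower, with a median log2 ratio of -0.64. Of 19 conjugation genes, which also serve drug metabolism, 1 was higher and 1 lower (median 0.16). Of 27 plasma protein genes none was 2-fold higher and 5 were lower (median -0.35, and -0.07 among hepatocytes with at most 1% mitochondrial UMIs). Of 25 immediate early genes, whose transcripts appear within minutes of a stimulus, 18 were higher and none lower (median 2.64).

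**Figure D2:**
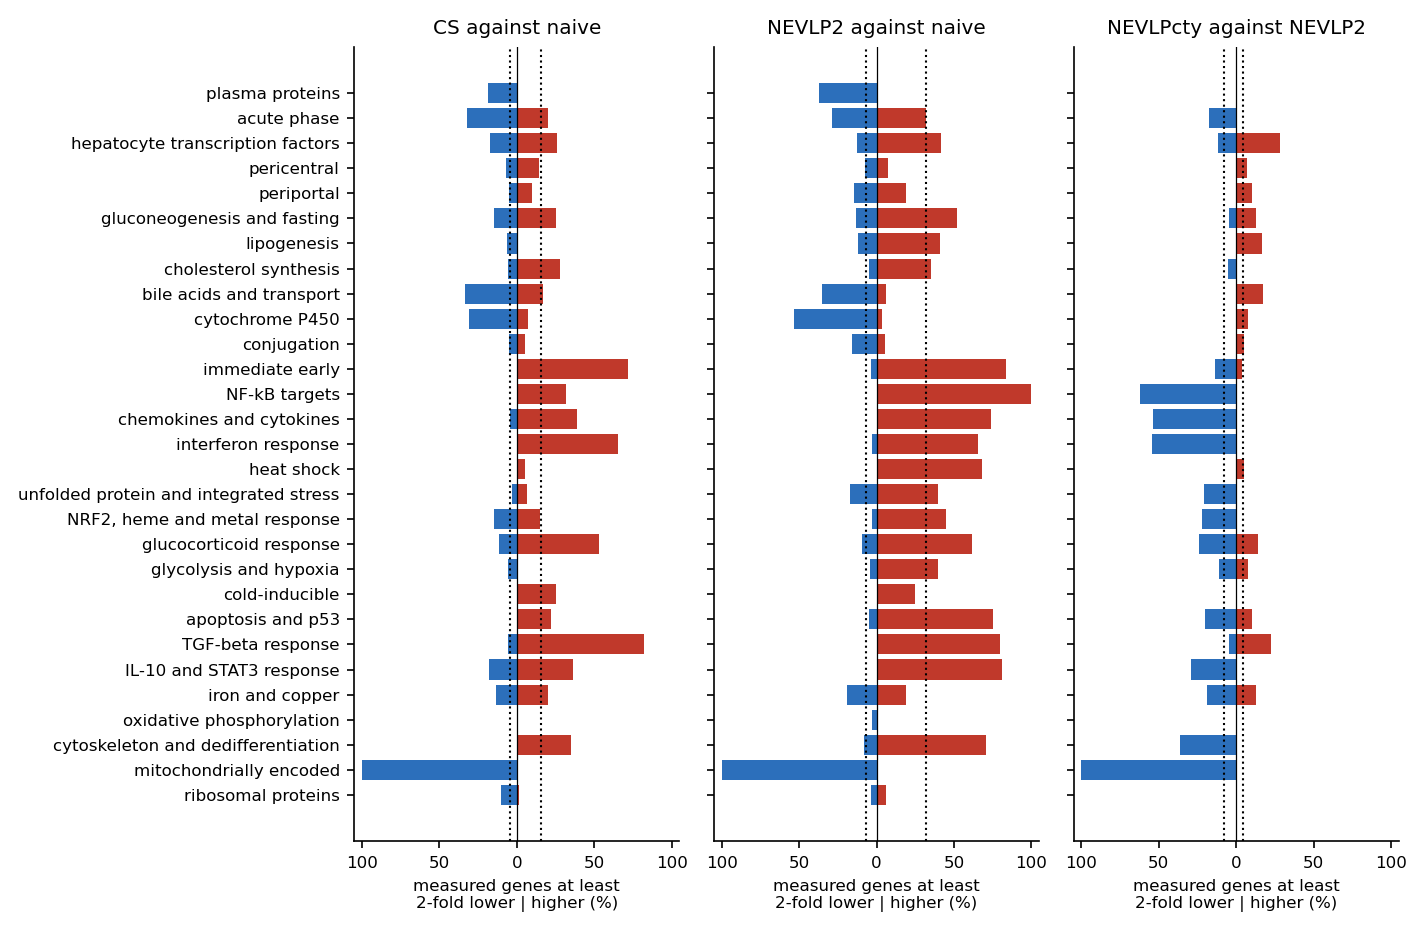
Share of the measured genes of each list that were at least 2-fold higher (red) or lower (blue) in hepatocytes, in percent, for CS against naive, NEVLP2 against naive and NEVLPcty against NEVLP2, without the genes of the member rule, with dotted lines at the share over all measured genes. NF-kB targets and chemokines stand far out as higher in NEVLP2 and as lower in NEVLPcty, and both comparisons use the NEVLP2 library.

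The leading genes of CS did not stand clear of other cells. By the bound of the ratio nearest 1, the 10 leading higher genes, among them Igfbp7, Ramp2, Fcgr2b and Sparc, all had higher levels in the endothelial than in the hepatocyte barcodes of CS. Igfbp7, a secreted vascular protein, was at 0.257, 88.6, 43.4 and 39.6 CPM, with a marker-implied level of 79 in CS and an endothelial level of 1848.9. The immediate early genes were likewise near that level. Fos, a subunit of the AP-1 transcription factor, was at 7.19, 268, 31.9 and 18 CPM. The CS library was the high one, but the marker-implied level there was 370 CPM. Btg2, a p53-responsive antiproliferative gene, was at 43.1, 274, 600 and 597 CPM, with a marker-implied level of 276 in CS and 36.7 in NEVLP2, so that the perfused hepatocytes stood well above it and the cold-stored ones did not. Once the marker-implied level was subtracted, nothing was left of 4 of the 25 immediate early genes in either library, and the other 21 had a median of -0.09, with 5 past 2-fold on the CS side and 6 on the naive side. Over all genes 426 were then past 2-fold on the CS side and 855 on the naive side.

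Among the genes lower after cold storage, those named here had marker-implied levels of at most 1.45 CPM in CS. Spink1, a secreted trypsin inhibitor, was at 379, 12.4, 31.1 and 9.46 CPM. The naive liver alone was high, and CS was 30.6-fold lower (21.8 to 44.4). Cish, a feedback inhibitor of growth hormone and cytokine signalling through STAT5, was at 26.9, 0.727, 81.1 and 57.1 CPM. Cold storage was the low library with 2 UMIs in all, 37.1-fold below naive (10 to 310), but the order reversed (log2 ratio 0.43) among the 640 naive and 43 CS hepatocytes that held no UMI of another cell type's marker. Socs2, another STAT5-driven inhibitor of growth hormone signalling, was likewise lowest in CS and highest in NEVLP2, with 66, 8.36, 116 and 45.5 CPM, and was 7.89-fold lower in CS than in naive (5.15 to 12.7). Abcb11, the bile salt export pump, was at 42.3, 7.63, 12.5 and 10.3 CPM, 5.55-fold lower in CS (3.51 to 9.21). It was also lower in each perfused library than in naive, though among hepatocytes with at most 1% mitochondrial UMIs the log2 ratio of NEVLP2 to naive was 0.57.

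Long secretory transcripts were low as well. Apob, the structural protein of VLDL, was at 307, 89.7, 189 and 111 CPM, and Cp, the copper carrier ceruloplasmin, at 190, 41.1, 146 and 65. C3, the central complement protein, was at 753, 194, 302 and 250 CPM. Over all hepatocytes the naive library was the highest and CS the lowest for all 3 genes, at 3.42-fold (2.98 to 3.94), 4.63-fold (3.79 to 5.69) and 3.89-fold (3.54 to 4.27) below naive. For Apob the level moved with the mitochondrial share inside a library. It was at 59.55 CPM in the 116 naive hepatocytes with at most 1% mitochondrial UMIs and at 335.2 in the other 1317. In CS the levels were 53.18 and 137.6, in NEVLP2 109.8 and 274.3, and in NEVLPcty 97.77 and 280.4. Among hepatocytes with at most 1% the perfused libraries thus stood above naive, and CS stood near it. Among hepatocytes with at most 1% mitochondrial UMIs 2 of 22 P450 genes were at least 2-fold lower in CS than in naive, and 1 was higher.

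Cold-stored hepatocytes held more of some single metabolic and regulatory transcripts. Nr0b2, the bile-acid-induced repressor SHP, was at 3.59, 54.5, 1.81 and 9.46 CPM. Cold storage was the high library, 15.2-fold above naive (8.76 to 28.4). Tat, tyrosine aminotransferase, was at 80.6, 275, 204 and 294 CPM, so that naive was the low library and CS stood 3.41-fold above it (2.98 to 3.9). Id4, an inhibitor of helix-loop-helix transcription factors, was at 73.9, 198, 39.2 and 303 CPM, 2.67-fold higher in CS than in naive (2.31 to 3.1). Idi1, an enzyme of cholesterol synthesis, was at 63.1, 202, 254 and 189 CPM and 3.2-fold higher in CS (2.75 to 3.74). Of 18 cholesterol synthesis genes 5 were at least 2-fold higher and 1 lower, and after centring 3 and 2. Of 32 interferon response genes 21 stood 2-fold or more above naive and none below it (median 1.47), and 14 of 29 were so, with 1 lower, after subtraction of the marker-implied level. The same subtraction gave 426 higher and 855 lower over all genes.

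Perfusion without added cytokines was compared with the naive liver. In NEVLP2 hepatocytes 2579 of 8077 genes were at least 2-fold higher (31.9%) and 547 at least 2-fold lower (6.77%), with a median log2 ratio of 0.48 and, after centring, 1696 higher and 1217 lower genes. All 28 measured NF-kB targets were at least 2-fold higher, with a median log2 ratio of 4.41, and after centring 27 were, with none lower (median 3.94). Of 27 chemokines and cytokines 20 were higher and none lower (median 3.82), of 35 interferon response genes 23 were higher and 1 lower (1.77), and of 20 apoptosis and p53 genes 15 were higher and 1 lower (2.39). After subtraction of the marker-implied level 25 of the 28 NF-kB targets were higher and 1 lower (median 3.41), and of the 25 chemokines and cytokines with a level left 15 were higher and 3 lower (1.80). Over all genes that subtraction gave 2050 higher and 791 lower.

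The chemokines that attract neutrophils and T cells led this group. Cxcl1, a neutrophil attractant, was at 23.4, 22.5, 3032 and 1759.9 CPM. The perfused libraries were high and the other 2 low. NEVLP2 stood 130-fold above naive (106 to 161), with a marker-implied level of 574 CPM. Cxcl11, a CXCR3 ligand that attracts activated T cells, was at 14.1, 22.9, 748 and 74.8 CPM. NEVLP2 was the high library, 53-fold above naive (40.6 to 70.5), and the marker-implied level there was 5.45 CPM. Cxcl10, a second CXCR3 ligand, was at 1.03, 11.6, 1118 and 177 CPM, with a marker-implied level of 10.6 in CS and 62.4 in NEVLP2. It stood 1089-fold above naive in NEVLP2 (425 to 3999), where the naive value rests on 4 UMIs.

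These transcripts were spread over the hepatocytes. With every barcode thinned to 1000 UMIs, which left out 226 naive, 289 CS, 617 NEVLP2 and 207 NEVLPcty hepatocytes, Cxcl1 was found in 1.823%, 2.236%, 90.19% and 69.69% of them, and without thinning in 3.14%, 3.127%, 94.79% and 79.67%. Thinned endothelial barcodes of NEVLP2 held it at 98.85% and lymphocyte barcodes at 27.94%, so Cxcl1 was not particular to hepatocytes. Cxcl11 was found in 48.02% of thinned NEVLP2 hepatocytes (58.59% unthinned), in 5.74% of the endothelial and 1.832% of the lymphocyte barcodes. For this gene the hepatocytes were the highest of these populations. Detection in Kupffer barcodes is not reported here. Cxcl10 lay between, in 59.35% of NEVLP2 hepatocytes (68.63% unthinned), 41.84% of endothelial and 6.565% of lymphocyte barcodes.

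Intracellular parts of the NF-kB pathway were high in the same library. Ripk2, the kinase that relays NOD receptor signals, was at 1.28, 6.9, 340 and 31.6 CPM. NEVLP2 was the high library by 265-fold over naive (113 to 818). Tifa, an adaptor that activates TRAF6, was at 3.59, 12, 563 and 97 CPM, 157-fold higher in NEVLP2 than in naive (93.3 to 287). Nfkbia, the inhibitor IkBa that NF-kB itself induces, was at 16.9, 115, 549 and 361 CPM, with marker-implied levels of 50.7 in CS and 218 in NEVLP2. It was 32.4-fold higher in NEVLP2 than in naive (25.4 to 42). Birc2, the ubiquitin ligase cIAP1, was at 34.4, 28.7, 224 and 34.6 CPM, and only NEVLP2 was high.

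Other leading genes had the same order. Lcn2, a siderophore-binding acute phase protein, was at 0.257, 3.63, 204 and 12.1 CPM. With 1 UMI in naive hepatocytes the ratio of NEVLP2 to naive was 797 (143 to 31496), and NEVLP2 was 56.3-fold above CS (30.5 to 118). Sod2, the mitochondrial superoxide dismutase, was at 245, 356, 2751 and 1223 CPM, 11.2-fold higher in NEVLP2 than in naive (10.5 to 12). Tgm1, a transglutaminase, had no UMI in naive hepatocytes, 0.363 CPM in CS, 42.2 in NEVLP2 and 2.37 in NEVLPcty, and was at least 54.8-fold higher in NEVLP2 than in naive when 3 UMIs are set for the count of 0. A pair of familiar inflammatory genes stood near their marker-implied level in NEVLP2 and are no hepatocyte result: Ccl2 at 511 CPM against 463 and Cxcl2 at 534 against 550.

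**Figure D3:**
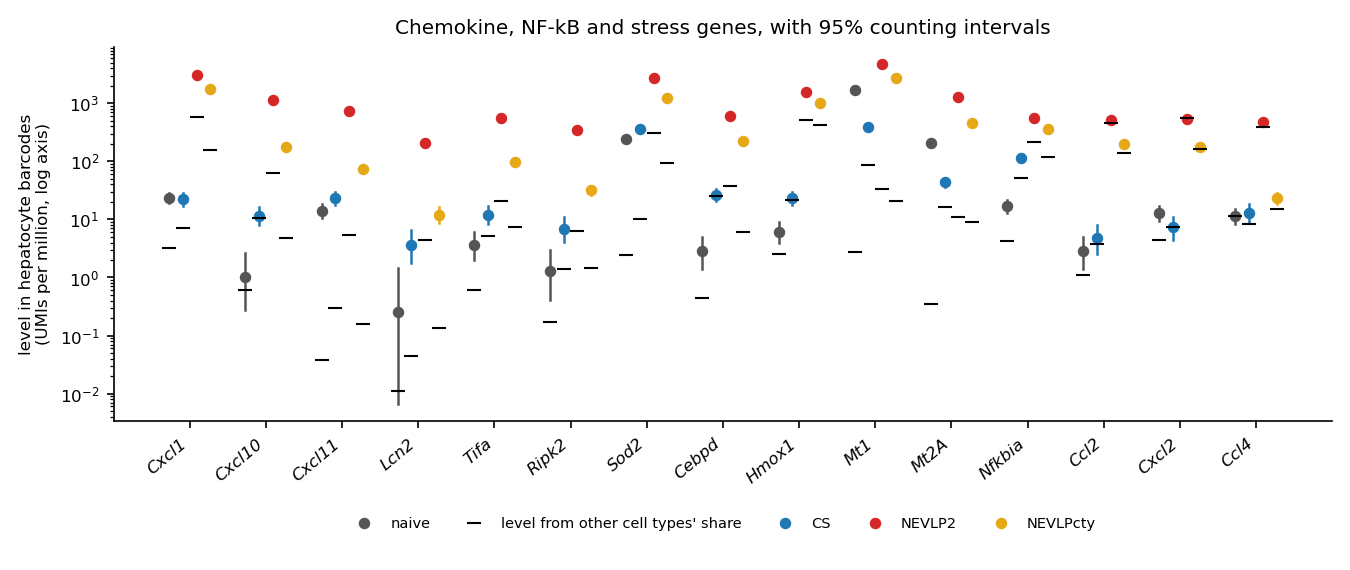
Level of inflammatory genes in hepatocytes of the 4 libraries in CPM on a log axis, with 95% Poisson intervals for counting error and black dashes at the marker-implied level from other cell types. NEVLP2 is highest for Cxcl10, Cxcl11, Lcn2 and Ripk2, far above the dashes.

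Some promoters of these genes hold letters that NF-kB and interferon-activated factors are known to bind, and 4 such promoters are shown. The 250 bases before the start site of each gene are printed 5′ to 3′ on the gene's own strand (RefSeq, build GRCr8). Capitals mark a match to the kappaB motif (GGG, any 2 bases, TTTCC) in Cxcl1, Nfkbia and Tifa and to the interferon-stimulated response element (TTTC, any 2 bases, TTTC) in Cxcl10, searched on both strands.
Cxcl1: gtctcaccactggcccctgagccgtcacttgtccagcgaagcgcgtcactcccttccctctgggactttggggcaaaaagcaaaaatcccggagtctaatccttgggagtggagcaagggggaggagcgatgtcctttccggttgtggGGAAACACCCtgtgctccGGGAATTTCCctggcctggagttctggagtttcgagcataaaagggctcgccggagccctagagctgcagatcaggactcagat
Nfkbia: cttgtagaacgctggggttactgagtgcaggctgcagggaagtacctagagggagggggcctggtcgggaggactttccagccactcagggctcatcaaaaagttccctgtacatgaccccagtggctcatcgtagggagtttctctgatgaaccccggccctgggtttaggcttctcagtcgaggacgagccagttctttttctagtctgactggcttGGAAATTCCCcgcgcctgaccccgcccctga
Tifa: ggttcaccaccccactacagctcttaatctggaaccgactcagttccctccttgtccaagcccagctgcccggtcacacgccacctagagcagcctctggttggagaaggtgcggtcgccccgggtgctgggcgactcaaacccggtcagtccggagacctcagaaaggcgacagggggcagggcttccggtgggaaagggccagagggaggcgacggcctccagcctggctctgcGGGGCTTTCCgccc
Cxcl10: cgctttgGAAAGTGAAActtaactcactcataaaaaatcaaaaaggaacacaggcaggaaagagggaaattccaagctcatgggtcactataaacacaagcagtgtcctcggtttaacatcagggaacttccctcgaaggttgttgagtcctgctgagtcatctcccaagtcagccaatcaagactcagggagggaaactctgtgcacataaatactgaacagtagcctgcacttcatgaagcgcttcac
The Cxcl1 window (chr14:17479322-17479571, minus strand) held kappaB matches 102 to 93 and 84 to 75 bases before the start, the Nfkbia window (chr6:78597073-78597322, minus strand) 31 to 22 bases before it, and the Tifa window (chr2:218932636-218932885, plus strand) 14 to 5 bases before it. The Cxcl10 match (chr14:15988816-15989065, plus strand) lay 243 to 234 bases before the start. Windows of the same length at Cxcl11, Lcn2, Sod2 and Birc2 held neither set of letters. The kappaB letters stood in 8 of 26 promoters of the NF-kB list (30.8%) and in 435 of all 33469 (1.3%), and the interferon letters in 25 of 38 promoters of the interferon list (65.8%) and in 3.41% of all. A match is a description of these letters and not a measured binding site.

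Some stress genes were higher in NEVLP2 than in naive hepatocytes, with 31.9% of all measured genes higher. Of 31 NRF2, heme and metal response genes 14 were at least 2-fold higher and 1 lower, with a median of 0.89, and of 19 heat shock genes 13 were higher and none lower (1.10), or 8 higher and 1 lower after centring. Hmox1, heme oxygenase, was at 6.16, 23.3, 1544 and 996 CPM, with marker-implied levels of 518 in NEVLP2 and 422 in NEVLPcty. It stood 251-fold above naive in NEVLP2 (168 to 391). Hspb8, a small heat shock protein, was at 34.1, 58.9, 246 and 184 CPM, 7.2-fold higher in NEVLP2 than in naive (6.02 to 8.68). Of 35 unfolded protein and integrated stress response genes 14 were higher and 6 lower, and after centring 12 and 10. Trib3, a target of ATF4, was among the higher at 3.85, 3.63, 69.1 and 119 CPM, and the endoplasmic reticulum enzyme Pdia4 among the lower at 42.3, 22.5, 16.7 and 11.2 CPM. Both perfused livers were the high ones for Trib3 and the low ones for Pdia4.

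Metallothioneins, small zinc- and copper-binding proteins that metals and glucocorticoids induce, had opposite orders in cold and warm preservation. Mt1 was at 1677, 383, 4679 and 2720.4 CPM. Cold storage was 4.38-fold lower (4.1 to 4.67) and NEVLP2 2.79-fold higher than naive (2.71 to 2.87). Mt2A was at 203, 43.6, 1263 and 452 CPM, 4.66-fold lower in CS (3.84 to 5.69) and 6.22-fold higher in NEVLP2 (5.77 to 6.7). The 2 genes are close paralogs, so their counts may be split between them. Their promoters are shown because of the metal response element, whose core TGCGCNC, searched on both strands, is in capitals in both; the first stretch of Mt2A is a match on the opposite strand.
Mt1: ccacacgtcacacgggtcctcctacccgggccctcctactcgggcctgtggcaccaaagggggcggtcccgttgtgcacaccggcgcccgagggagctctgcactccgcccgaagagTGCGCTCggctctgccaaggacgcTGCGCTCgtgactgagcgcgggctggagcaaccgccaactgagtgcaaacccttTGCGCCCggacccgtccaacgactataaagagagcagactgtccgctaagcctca
Mt2A: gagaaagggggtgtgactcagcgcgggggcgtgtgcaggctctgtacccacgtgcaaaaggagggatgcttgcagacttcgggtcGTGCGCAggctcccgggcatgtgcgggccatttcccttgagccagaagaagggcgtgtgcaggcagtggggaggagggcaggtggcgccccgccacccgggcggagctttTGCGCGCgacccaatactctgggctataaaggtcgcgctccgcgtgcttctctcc
The Mt1 window (chr19:10832976-10833225, minus strand) held the core 133 to 127, 109 to 103 and 55 to 49 bases before the start, and the Mt2A window (chr19:10838709-10838958, minus strand) 165 to 159 and 55 to 49 bases before it. The same 7 letters occur in 11.8% of all promoters.

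Metabolic genes of NEVLP2 hepatocytes did not move as a block. Of 23 gluconeogenesis and fasting genes 12 were at least 2-fold higher than in naive and 3 lower (median 1.12), and the lower ones were Pck1, G6pc and Cyp4a1. The list median was 0.64 after centring and -0.19 among the hepatocytes without another cell type's marker, of which NEVLP2 had 100. Pck1, which makes phosphoenolpyruvate and which insulin represses and glucagon induces, was at 1138, 1669, 253 and 841 CPM. NEVLP2 was the low library, 4.49-fold below naive (4.22 to 4.79) and 6.59-fold below CS (6.19 to 7.02). G6pc, the last step of glucose release, was at 54.2, 107, 26.1 and 39.9 CPM, lowest in NEVLP2. Fbp1, fructose bisphosphatase of the same route, was at 706, 1166.9, 1247.1 and 1102.4 CPM, lowest in naive, so the route did not go one way. Sds, serine dehydratase, had another order with 16.2, 50.1, 309 and 214 CPM, 19.1-fold higher in NEVLP2 than in naive (14.8 to 25), and Igfbp1, a secreted IGF-binding protein, was at 45.9, 74.5, 348 and 197 CPM. For both of these the perfused libraries were high.

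Pck1 was also scarcer per cell. After thinning it was found in 50.21%, 60.02%, 14.74% and 42.07% of the hepatocytes, against 64.9%, 71.07%, 21.04% and 59.42% without thinning, and in at most 4.027% of thinned endothelial barcodes. Its promoter (chr3:182348322-182348571, plus strand) is printed for the cAMP response element, with TTACGTCA in capitals 93 to 86 bases before the start. These 8 letters occur in 0.75% of all promoters.
Pck1: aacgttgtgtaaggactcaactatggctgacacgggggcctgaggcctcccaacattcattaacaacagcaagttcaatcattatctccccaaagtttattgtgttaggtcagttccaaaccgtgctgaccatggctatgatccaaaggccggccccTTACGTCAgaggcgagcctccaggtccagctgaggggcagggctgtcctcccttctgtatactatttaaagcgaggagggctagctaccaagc

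**Figure D4:**
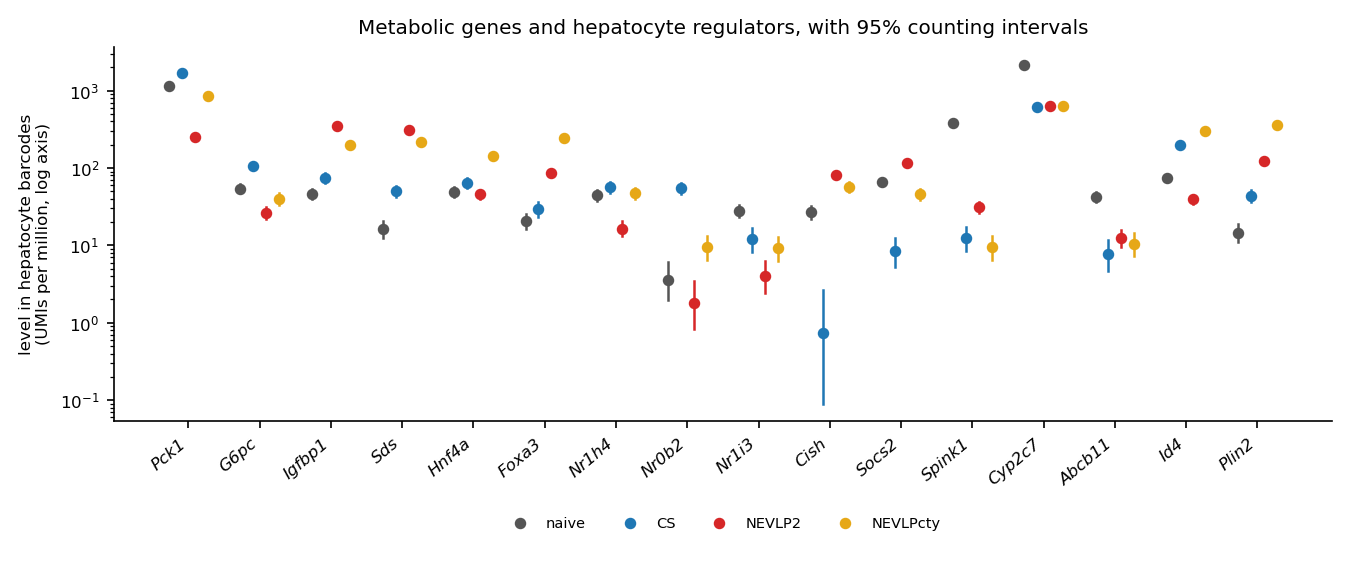
Level of metabolic and regulatory genes in hepatocytes of the 4 libraries in CPM on a log axis, with 95% Poisson intervals for counting error. Pck1 is lowest in NEVLP2 at 253 CPM, and Id4 and Hnf4a are highest in NEVLPcty.

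Lipid and sterol genes were higher in NEVLP2 at about the share of all genes. Of 17 lipogenesis genes 7 were at least 2-fold higher than in naive and 2 lower, and of 20 cholesterol synthesis genes 7 were higher and 1 lower. Centring made these counts 5 higher and 5 lower, and 3 higher and 3 lower. Insig1, which helps hold the transcription factor SREBP in the endoplasmic reticulum, was at 66.2, 156, 686 and 506 CPM, 10.4-fold higher in NEVLP2 than in naive (9.12 to 11.8). Thrsp, a lipogenic regulator induced by insulin and thyroid hormone, was at 604, 1147, 2576 and 3269 CPM. Both genes were lowest in the naive liver and higher in the perfused livers than in the cold-stored one. Fads1, a fatty acid desaturase, went the other way with 83.4, 81.7, 40.6 and 50 CPM.

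P450 genes and some bile acid genes and nuclear receptors were lower in NEVLP2. Of 28 P450 genes 1 was at least 2-fold higher than in naive and 15 lower (median -1.01), and of 17 bile acid genes 1 was higher and 6 lower (after centring 21 and 10 lower, with none higher). Of 19 conjugation genes 1 was higher and 3 lower (median -0.22). Nr1i3, the xenobiotic receptor CAR that induces P450 genes, was at 28, 12, 4.02 and 9.16 CPM, 6.96-fold lower in NEVLP2 than in naive (4.3 to 11.8). Nr1h4, the bile acid receptor FXR, was at 44.4, 56.3, 16.5 and 47 CPM, and NEVLP2 was the low library. These 2 receptors were the lowest of 24 hepatocyte transcription factors, of which 10 were at least 2-fold higher than in naive and 3 lower. The median of that list was 0.50, the shares over all genes were 31.9% and 6.77%, and centring gave 6 higher and 7 lower. Cebpd and Cebpb were its highest members. Slc10a1, the sodium-dependent bile acid importer, was at 403, 393, 168 and 172 CPM, low in both perfused livers and 2.4-fold lower in NEVLP2 than in naive (2.21 to 2.62). Cyp4a2, a fatty acid hydroxylase, was at 88.3, 14.2, 19.5 and 36.1 CPM. Among hepatocytes with at most 1% mitochondrial UMIs 6 of 23 P450 genes were at least 2-fold lower in NEVLP2 than in naive and none higher. With the stricter rule of at least 8 of the 10 genes and 10% of UMIs the log2 ratio was -0.54 for Nr1h4, -0.60 for Slc10a1 and, for Pck1, -1.18, against -1.43, -1.27 and -2.17 with the rule as given.

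Zonal genes differed in both directions. Of 14 pericentral genes 1 was at least 2-fold higher and 1 lower in NEVLP2 than in naive. Of 21 periportal genes 4 were higher and 3 lower. The shares over all genes were 31.9% and 6.77%, so periportal genes were below that share in the higher direction and above it in the lower one. Summed levels were 7293, 8835, 8310 and 9913 CPM for pericentral and 7973, 10056.6, 11839.3 and 14274.9 CPM for periportal genes, lowest in naive for both. Cyp2e1, a pericentral P450, was at 831, 1084, 837 and 954 CPM, and the 4 libraries lay within a narrow range. Glul, glutamine synthetase of the innermost pericentral cells, was at 104, 225, 411 and 266 CPM, 3.93-fold higher in NEVLP2 than in naive (3.53 to 4.38). Among periportal genes Ass1, of the urea cycle, was at 1713, 2268, 3318 and 3375 CPM, and Cps1, the first urea cycle enzyme, at 187, 91.5, 69.9 and 57.1 CPM. Ass1 was lowest and Cps1 highest in naive, though for Cps1 the log2 ratio of CS to naive was 0.46 among hepatocytes without another cell type's marker.

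Warm perfusion was also set against cold storage, which lasted the same 4 h. In NEVLP2 hepatocytes 1520 of 8102 genes were at least 2-fold higher than in CS (18.8%) and 705 at least 2-fold lower (8.7%), and centring gave 1211 and 973. All 28 measured NF-kB targets were higher (median 3.18), as were 15 of 31 NRF2, heme and metal genes, with 1 lower, and 13 of 25 glycolysis and hypoxia genes, with 1 lower. The higher genes included Cish, at 81.1 CPM in NEVLP2 against 2 UMIs in CS (112-fold, 30.7 to 925), and Mt2A (29-fold, 24.2 to 35). The lower genes included Nr0b2 (30.1-fold, 15.5 to 67.2) and Id4 (5.05-fold, 4.28 to 5.97). Aldoa, a glycolytic aldolase, stood at 44.1, 87.2, 316 and 400 CPM over the 4 libraries, so both perfused livers were high.

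The remaining comparison was of perfusion with both cytokines against perfusion without them. In NEVLPcty hepatocytes 367 of 8068 genes were at least 2-fold higher than in NEVLP2 (4.55%) and 625 at least 2-fold lower (7.75%), with a median log2 ratio of 0.02 and, after centring, 349 higher and 647 lower genes. It shares the NEVLP2 library with the comparisons above, so a gene that was high in that library appears in both. Of 29 NF-kB targets 18 were at least 2-fold lower and none higher (median -1.13). Of 28 chemokines and cytokines 15 were lower and none higher (-1.21), and of 35 interferon response genes 19 were lower and none higher (-1.13). After subtraction of the marker-implied level these counts were 11 lower and 1 higher, 8 lower and 1 higher, and 16 lower and none higher. Over all genes that subtraction gave 550 lower and 546 higher.

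The lower genes included several that were high in NEVLP2 against naive. Lcn2, at 12.1 against 204 CPM, was 16.9-fold lower in NEVLPcty than in NEVLP2 (12.3 to 23.7). Ripk2 was 10.8-fold lower (8.84 to 13.2), Cxcl11 10-fold (8.8 to 11.4), Birc2 6.46-fold (5.34 to 7.89) and Cxcl10 6.33-fold (5.81 to 6.89). Cxcl1, in contrast, was 1.72-fold lower (1.67 to 1.78) and remained in 69.69% of thinned hepatocytes, and Hmox1 was 1.55-fold lower. The difference was thus uneven among them. Of 28 acute phase genes 5 were at least 2-fold lower and none higher (median -0.57). Haptoglobin, Hp, which binds free hemoglobin, was at 10253, 10209.9, 10313 and 7913 CPM, lowest in NEVLPcty. Angptl4, an inhibitor of lipoprotein lipase, was at 35.4, 14.2, 140 and 20.7 CPM, 6.75-fold lower in NEVLPcty than in NEVLP2 (5.28 to 8.77).

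Some hepatocyte regulators were higher with the cytokines, while metabolic lists differed little. Of 25 hepatocyte transcription factors 7 were at least 2-fold higher and 3 lower. Of 23 gluconeogenesis and fasting genes 3 were higher and 1 lower (median -0.06), of 27 P450 genes 2 and none, of 19 conjugation genes 1 and none, and of 20 cholesterol synthesis genes none and 1. Hnf4a, the nuclear receptor that maintains hepatocyte identity, was at 49.5, 64.3, 45.8 and 141 CPM. NEVLPcty was the high library, 3.09-fold above NEVLP2 (2.63 to 3.63). Foxa3, a pioneer factor of hepatocyte genes, was at 20.8, 29.4, 85 and 244 CPM, 2.87-fold higher (2.55 to 3.24). Id4, which was low in NEVLP2, was 7.73-fold higher (6.63 to 9.06), and Pck1 3.32-fold higher (3.11 to 3.55), at a level still below naive. Nr1h4 was 2.85-fold higher (2.17 to 3.77), at about the naive level.

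Other single genes were higher too. Fam13a was at 8.47, 4.72, 5.22 and 64.2 CPM and so high in NEVLPcty alone, 12.3-fold above NEVLP2 (8.16 to 19.2). Ppp1r3c, which targets protein phosphatase to glycogen, was at 35.9, 49, 16.5 and 91.1 CPM, 5.53-fold higher (4.32 to 7.14). Ccnd1, cyclin D1, was at 26.9, 78.8, 35.8 and 171 CPM, 4.8-fold higher (4.05 to 5.71), but none of the 4 measured genes of the proliferation list was 2-fold apart (median -0.29). Plin2, a lipid droplet coat protein, was at 14.6, 44, 124 and 358 CPM, 2.89-fold higher (2.62 to 3.19). All 4 genes were highest in NEVLPcty.

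Known targets of the added cytokines gave a mixed picture. Of 22 TGF-β targets 5 were at least 2-fold higher in NEVLPcty than in NEVLP2 and 1 lower (median 0.49). Pmepa1, a TGF-β-induced feedback inhibitor, was at 1.03, 4.72, 15.7 and 62.7 CPM, 4-fold higher (3.07 to 5.26). Bcl2l11, the proapoptotic protein BIM, was at 1.03, 2.91, 16.1 and 50 CPM, 3.11-fold higher (2.37 to 4.11). For both the level was highest in NEVLPcty and the marker-implied level at most 2.26 CPM. Of 17 genes of IL-10 and STAT3 signalling none was at least 2-fold higher and 5 were lower (median -0.56). Bcl3, a STAT3 and NF-kB target, was at 0.513, 2.91, 59.2 and 48.2 CPM, and Socs1, a cytokine feedback inhibitor, at 0.513, 2.91, 11.8 and 0.887 CPM. Hamp, the iron hormone hepcidin that BMP and STAT3 signals induce, was at 1526, 1520.0, 2094 and 3144 CPM, 1.5-fold higher in NEVLPcty than in NEVLP2 (1.46 to 1.54).

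Plasma protein genes differed between naive and NEVLP2 and hardly between the perfused livers. The 10 rule genes, which chose the cells and are given as a description, summed to 128040.6, 114919.2, 87006.2 and 91392.0 CPM. Alb was at 34662, 23691, 22414 and 23768 CPM, and Ttr at 37232, 34082, 23583 and 20271 CPM. Both were highest in the naive library over all hepatocytes. Among those with at most 1% mitochondrial UMIs Alb was at 22944.9, 23391.9, 20870.8 and 23434.4 CPM, so naive was not the highest. Of the 27 plasma protein genes outside the rule 10 were at least 2-fold lower in NEVLP2 than in naive and none higher (median -0.89, and 21 lower after centring), and none differed 2-fold between NEVLPcty and NEVLP2. With at most 1% mitochondrial UMIs 7 of the 27 were lower in NEVLP2 than in naive and 1 was higher (median -0.64). Of 31 nuclear genes of oxidative phosphorylation 1 was 2-fold lower in NEVLP2 than in naive and none 2-fold away in the other comparisons. The 13 mitochondrially encoded genes stood in contrast, with summed levels of 47381, 14085.8, 15995 and 2865 CPM, and all 13 were at least 2-fold lower in CS than in naive, in NEVLP2 than in naive and in NEVLPcty than in NEVLP2. Among hepatocytes with at most 1% mitochondrial UMIs these counts were 3 of 12, 3 of 13 and 13 of 13. That limit selects hepatocytes on the level of these same genes, so the counts under it are a description only. It kept 116 of 1433 naive and 1099 of 1210 NEVLPcty hepatocytes. Mt-cyb, cytochrome b, was at 5707, 1753, 2174 and 259 CPM.

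The inflammatory differences between the perfused livers were present in both classes of mitochondrial share. In NEVLP2 the 1024 hepatocytes with at most 1% mitochondrial UMIs held 3024 CPM of Cxcl1, 720.4 of Cxcl11 and 189 of Lcn2, and the other 1357 held 3042, 777.7 and 221.2. In NEVLPcty the 1099 with at most 1% held 1772, 77.07 and 10.83 CPM, and the other 111 held 1604, 45.36 and 28.87. Both classes of NEVLP2 thus stood above both classes of NEVLPcty. Over NEVLP2 hepatocytes of 500 to 1000, 1000 to 2000, 2000 to 4000 and at least 4000 UMIs, Cxcl11 was at 672.6, 774.5, 787.9 and 705.4 CPM, and Lcn2 at 124, 163.3, 190.8 and 281.9. Hnf4a in NEVLPcty was at 137.3 CPM in the class of at most 1% and at 193.8 in the other, against 49.86 and 41.4 in NEVLP2.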

How the data were processed

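Single-cell RNA libraries (10x Genomics) of 4 rat livers were analysed. The authors deposited UMI counts per gene and barcode as filtered matrices from Cell Ranger, version 2.1.1 per the submitters' processing notes and 6.0.0 per the file headers. As to the build they were counted against, it was not given in the sources used here.

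Members were found by the rule given at the start of the report. Their counts were summed per library and divided by the total to give CPM over 22250 features (pandas 2.3.3 and scipy 1.17.1 under Python 3.11.15). A gene was measured with at least 20 counts in the 2 libraries compared and called at a 2-fold ratio; ratios have exact conditional binomial intervals, levels exact Poisson and shares Clopper-Pearson intervals, all at 95% and for counting error only. A count of 0 was set to 3. With 1 library per group no test was run. The ratios and intervals were run on simulated Poisson counts, where the intervals covered the set ratio for 95.7 to 96.1% of genes. That is the counting error the intervals assume. The simulation held no variation between cells, animals or libraries, so it says nothing about those. No doublet caller was run; the rule bars 4 markers, and the 5% of members with most UMIs were left out as an alternative. Endothelial barcodes needed Stab2 and at least 3 other endothelial markers, lymphocyte barcodes Ptprc and at least 2 lymphocyte markers, and Kupffer barcodes Clec4f and at least 3 macrophage markers.

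The members, the 27 gene lists and the comparisons were chosen with earlier results of these data known. Named genes were the rule genes, the genes with the largest ratios by the interval bound nearest 1 (at least 100 counts, found in at least 5% of members), and in each list those with most counts or the most extreme ratios. Ambp, Plin2, Cd74 and Cd79b were named outside this rule after their values were seen, as was the choice of genes for promoters, the Kupffer reference, the marker-implied level and the counting of lists without the genes of the member rule. Fkbp5 and Tsc22d3 were also named outside this rule. The rule named more genes than the text describes; the values of the others are not reported here. Promoters came from RefSeq (GRCr8).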

Additional observations from a re-analysis of the deposited data

How the results depend on the processing

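The member share moved with the rule. With at least 8 of the 10 genes and 10% of UMIs it was 25.27%, 6.251%, 4.919% and 2.91% (in the order naive, CS, NEVLP2, NEVLPcty), and with at least 5 genes and 2% it was 46.02%, 17.48%, 30.34% and 12.93%. It was 20.15%, 4.501%, 7.716% and 4.743% with members of at least 2000 UMIs, 19.39%, 0.3982%, 0.9817% and 1.326% without members holding another cell type's marker, and with a mitochondrial maximum of 10% it was 13.93% in CS and 24.49% in NEVLP2.

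The counts of genes past 2-fold moved as follows. For CS against naive the 1127 higher genes became 615 with the stricter and 1702 with the looser rule, 646 after thinning, 298 at 100 counts, 2414 with no filter on counts, 647 in members with at most 1% mitochondrial UMIs and 426 less the other cell types' share. The 318 lower genes became 538 after centring, 125 at 100 counts, 744 with no filter and 855 less that share. For NEVLP2 against naive the 2579 higher genes became 1696 after centring, 1330 with the stricter rule, 968 without marker-holding members and 1385 at 100 counts, and the 547 lower ones 1217, 362 with the stricter rule, 308 after thinning, 216 at 100 counts and 1167 with no filter. For NEVLP2 against CS the 1520 higher genes became 920 with the stricter rule, 299 without marker-holding members and 826 at 100 counts, and the 705 lower ones 316, 64 and 193, 365 after thinning and 1654 with no filter. For NEVLPcty against NEVLP2 the 367 higher genes became 194 without marker-holding members, 222 after thinning, 89 at 100 counts and 962 with no filter, and the 625 lower ones 322 with the stricter rule, 169 without marker-holding members, 235 at 100 counts and 1282 with no filter. A higher filter or fewer members leaves fewer genes to count; other causes were not tested. The settings with at most 1% mitochondrial UMIs and less the other types' share were added after the data were seen.

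Directions reversed in these cases, given as log2 ratios. Without members holding another cell type's marker (43 in CS and 100 in NEVLP2), CS against naive gave Abcg2 1.21, Angptl4 0.21, Cish 0.43, Cps1 0.46, Foxa2 0.81, Nr1i3 0.85 and Tfr2 0.59, and NEVLP2 against naive gave Hjv 0.20 and a gluconeogenesis and fasting list median of -0.19. Less the other cell types' share, CS against naive gave Btg2 at most -5.03, Cebpd -0.55, Hmox1 -1.33, Il6st -0.85, Junb -1.97 and Plk2 -0.84, with an immediate early list median of -0.088, and NEVLP2 against CS gave Ccl24 at least 0.13 and Id1 at least 1.71, where nothing was left in CS and the floor of 3 counts sets the bound. Genes with nothing left above 3 counts in either library, such as Akr1b8 and Anxa3 for NEVLP2 and naive, gave no ratio under that subtraction. With at most 1% mitochondrial UMIs, NEVLP2 against naive gave Abcb11 0.57 and Cyp7a1 -0.31, and with the stricter rule Alas1 0.053. No paired analysis was possible because the groups share 1 replicate number and hold 1 library each. No library could be left out for the same reason.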

Other observations

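Structural and translational genes not described above also differed between the libraries. Of 24 cytoskeleton and dedifferentiation genes 17 were at least 2-fold higher in NEVLP2 than in naive hepatocytes and 2 lower, with a median log2 ratio of 1.64. The shares over all genes were 31.9% and 6.77%. Centring gave 13 higher and 3 lower, and subtraction of the marker-implied level 14 and 2 of 23. Over all genes the subtraction gave 2050 higher and 791 lower. Of 25 such genes 9 were lower in NEVLPcty than in NEVLP2 and none higher, against 7.75% and 4.55% over all genes. That subtraction gave 8 lower and 2 higher, and over all genes 550 lower and 546 higher. Krt18, a keratin of simple epithelia, was at 205, 454, 1044 and 1253 CPM (naive, CS, NEVLP2 and NEVLPcty libraries), and Actb at 197, 552, 753 and 660 CPM, with a marker-implied level of 203 in CS and 160 in NEVLP2. Ribosomal protein transcripts summed to 55611.6, 46580.9, 66847.5 and 77051.4 CPM, and none of 81 was 2-fold apart between the perfused livers. The ferritin heavy chain Fth1 was at 8384, 13503, 15541 and 11208 CPM, lowest in the naive liver.

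Both perfusates held hydrocortisone, and its part in glucocorticoid response genes was not tested. Of 21 such genes outside the member rule 13 were at least 2-fold higher in NEVLP2 than in naive and 2 lower. The shares over all genes were 31.9% and 6.77%, and centring gave 11 and 3. Of 17 in CS, which had no perfusate, 9 were higher and 2 lower, against 15.4% and 4.36%, and after centring 6 and 2. After subtraction of the marker-implied level, with the rule gene Tdo2 counted, 13 of 22 were higher in NEVLP2 and 3 lower. In CS 4 of 18 were then higher and 2 lower. Over all genes the subtraction gave 2050 higher and 791 lower in NEVLP2, and 426 higher and 855 lower in CS. Fkbp5, a direct glucocorticoid receptor target, was at 7.7, 10.2, 12.9 and 22.5 CPM, and Tsc22d3, another, at 21.8, 51.2, 21.5 and 25.4 CPM.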
